A study of Mus musculus with 10 samples.

Results

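Wnt signalling and zonation regulators of the liver were followed across 10 mouse livers: the ligands Wnt2 and Wnt9b, the R-spondin Rspo3, the receptors Lgr4 and Lgr5, the ubiquitin ligases Rnf43 and Znrf3, and the target genes Axin2, Tbx3 and Sp5. They are the 10 rows, of 59408 gene models in the deposited table, whose symbol field names one of these genes. Bulk messenger RNA was sequenced from livers of wild-type C57BL/6 mice, all collected at day 35. The control group was 4 untreated mice, which received neither adjuvant nor glycolipid nor special diet. The PBC group was 3 mice in which autoimmune primary biliary cholangitis was modelled, given 100 µg of 2-octynoic acid coupled to bovine serum albumin intraperitoneally at days 0, 14 and 28, in complete Freund's adjuvant first and incomplete adjuvant after. These mice also received 2 µg of α-galactosylceramide, a glycolipid that activates natural killer T cells, intravenously with the antigen on days 0 and 14. The PSC group was 3 mice in which non-autoimmune primary sclerosing cholangitis was modelled with food holding 0.089% DDC by weight. DDC is 3,5-diethoxycarbonyl-1,4-dihydrocollidine, which damages bile ducts. The DDC diet ran for 2 weeks, then stopped for 1 week of recovery and ran for 1 more week. The comparisons of PBC and of PSC with control share the same 4 control livers.

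Wnt ligands bind Frizzled receptors and the co-receptors Lrp5 and Lrp6, which spares β-catenin from destruction and lets it act with TCF/LEF factors on target genes. R-spondins bind Lgr4 and Lgr5 and take the ligases Rnf43 and Znrf3, which otherwise remove Frizzled receptors, from the cell surface. In the liver, endothelial cells of the central vein and sinusoids are known sources of Wnt2, Wnt9b and Rspo3, and the hepatocytes around the central vein respond with glutamine synthetase, cytochromes P450, Axin2 and Lgr5.

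Promoter sequence is shown for a pair of direct β-catenin targets among the 10 genes, Sp5 and Axin2, whose levels in the PSC livers are given further on. The windows are the 250 bases before the annotated start, 5′ to 3′ on the gene's strand, from RefSeq on GRCm38.p6. The Sp5 window is chr2:70474673-70474922 and the Axin2 window chr11:108920099-108920348, both on the plus strand. Capitals mark matches on either strand to 4 forms of the TCF/LEF letters. These are CTTTGAA, its variant with the ending changed to CTTTGAT, the form CTTTGTA and likewise its variant CTTTGTT. The 2 matches do not overlap.
Sp5: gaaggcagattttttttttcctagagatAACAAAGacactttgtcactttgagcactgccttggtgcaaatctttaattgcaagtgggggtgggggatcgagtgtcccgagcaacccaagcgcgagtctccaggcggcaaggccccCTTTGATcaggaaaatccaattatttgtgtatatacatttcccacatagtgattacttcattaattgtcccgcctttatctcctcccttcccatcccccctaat
Axin2: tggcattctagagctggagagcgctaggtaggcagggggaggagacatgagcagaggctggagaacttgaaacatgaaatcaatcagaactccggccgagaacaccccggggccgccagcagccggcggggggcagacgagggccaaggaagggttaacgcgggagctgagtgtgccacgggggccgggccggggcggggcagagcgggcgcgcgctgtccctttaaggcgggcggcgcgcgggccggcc
The Sp5 window holds AACAAAG, which is CTTTGTT on the other strand, at bases 222 to 216 before the start, and CTTTGAT at bases 104 to 98. The Axin2 window holds none of these letters. RefSeq windows were matched by symbol for 6 of the 10 genes (Axin2, Lgr4, Rnf43 with 2 starts, Sp5, Wnt2 and Wnt9b), and among these 7 windows only that of Sp5 held a match. Over all genes, 4874 of 32851 windows of the same length (14.8%) held at least 1 match. A match describes the letters of the window and is not a measured binding site.

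Levels below are normalised reads, the deposited values, and each difference is a log2 fold change of the value plus 1 with its standard error (SE), its 95% confidence interval and a p from limma adjusted over all 18390 models tested. All 10 genes passed the filter of at least 10 normalised reads in at least 3 livers. Recovered depth ran from 38.3 M (mega) reads in control 3 to 95.4 M in PSC 11. The p-values measure the spread between individual livers. In bulk tissue, fewer cells of a type and less RNA per cell cannot be told apart.

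Marker genes of the liver's cell types were measured beside the 10 genes. Albumin (Alb), the defining hepatocyte product, lay at 4248251 to 6807275 normalised reads in control, 6214521 to 8634921 in PBC and 3134830 to 3645538 in PSC livers, so that every PSC liver was below every other liver. All 4 matched hepatocyte markers had a fitted PSC difference below 0, of which limma called 0 (1 at an unadjusted p under 0.05) and edgeR and DESeq2 each called 2, Alb and Ttr. Summed markers of cholangiocytes, the bile duct cells, lay at 7637 to 13149 in control, 10039 to 13538 in PBC and 53802 to 94714 in PSC livers, and 5 of 6 of them rose in PSC. Spp1 makes up most of that sum, and 2 of 6 rose in PBC, Krt19 (from 100 to 234 in control to 294 to 484) and Sox9 (from 132 to 186 in control to 371 to 451). Summed myofibroblast markers lay at 2056 to 3057, 5980 to 13110 and 39880 to 43640, with 4 of 5 higher in PBC and 5 of 5 higher in PSC. All 5 neutrophil markers rose in both models by limma, with a median difference of 9.26 in PBC and 4.57 in PSC. edgeR and DESeq2 each called 5 in PBC and 3 in PSC. Camp, Ltf and Mpo passed the filter only through PBC and PSC livers, with no control above 8.33. Of 5 macrophage markers 4 rose in PBC and 2 in PSC, and of 5 T cell markers 5 rose in PBC. Of 4 B cell markers 1 rose in PBC and 2 fell in PSC, where all 4 were below control without overlap. Of 4 proliferation markers 2 rose in PBC and 4 in PSC. The part of these cell types in the values of the 10 genes was not tested.

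None of the 10 genes passed the test in any of the 3 comparisons. In PBC against control limma called 0 of 10, against 9.94% of all models tested, and 2 of 10 (Wnt2 and Rspo3) had an unadjusted p under 0.05, against 26.5%. edgeR and DESeq2 also called 0 there, against 8.54% and 14.3% of all models. For PSC against control the count by limma was 0 of 10, against 14.7%, while 3 of 10 (Axin2, Wnt2 and Rspo3) had an unadjusted p under 0.05, against 30.1%. edgeR called 0 (14.2% of all models) and DESeq2 called 1, Axin2 (20.7% of all models). In PSC against PBC limma called 0 of 10, against 2.24%, with 2 of 10 (Axin2 and Lgr5) under an unadjusted p of 0.05, against 18.5%. edgeR and DESeq2 called 0 in that comparison, against 2.26% and 6.60%. Limma with quality weights, which count a library less where it strays from its group, called 2 of 10 in PBC (Wnt2 and Rspo3), 5 of 10 in PSC (Axin2, Lgr5, Wnt2, Rspo3 and Lgr4) and 0 between the models, against 23.0%, 39.7% and 7.39% of all models. Control 1 had a weight of 4.01, against 0.706, 0.41 and 0.621 for controls 2 to 4. The weighted control level therefore rests mostly on control 1. PBC 8 had the smallest weight, 0.289.

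All 10 fitted differences between PSC and control were below 0, with a median of -0.59, while 46.6% of all models tested were below 0 and their median was 0.06. The median without PSC 14 was -0.30, with 6 of 10 below 0. Between PBC and control 6 of 10 were below 0 and the median was -0.02, against 49.5% and 0.01 over all models. With equal library totals the PBC median was -0.14 and 8 of 10 were below 0, while the median of all models went to -0.12. Between PSC and PBC 8 of 10 were below 0 and the median was -0.35, against 51.6% and -0.02 over all models. PSC 14 had the lowest level of the PSC livers in 9 of the 10 genes and control 3 the lowest of the controls in 6. PBC 8 had the highest level of its group in 8. The PSC livers with these values are those with the lower Alb given above, whose part in them was not tested.

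**Figure D1:**
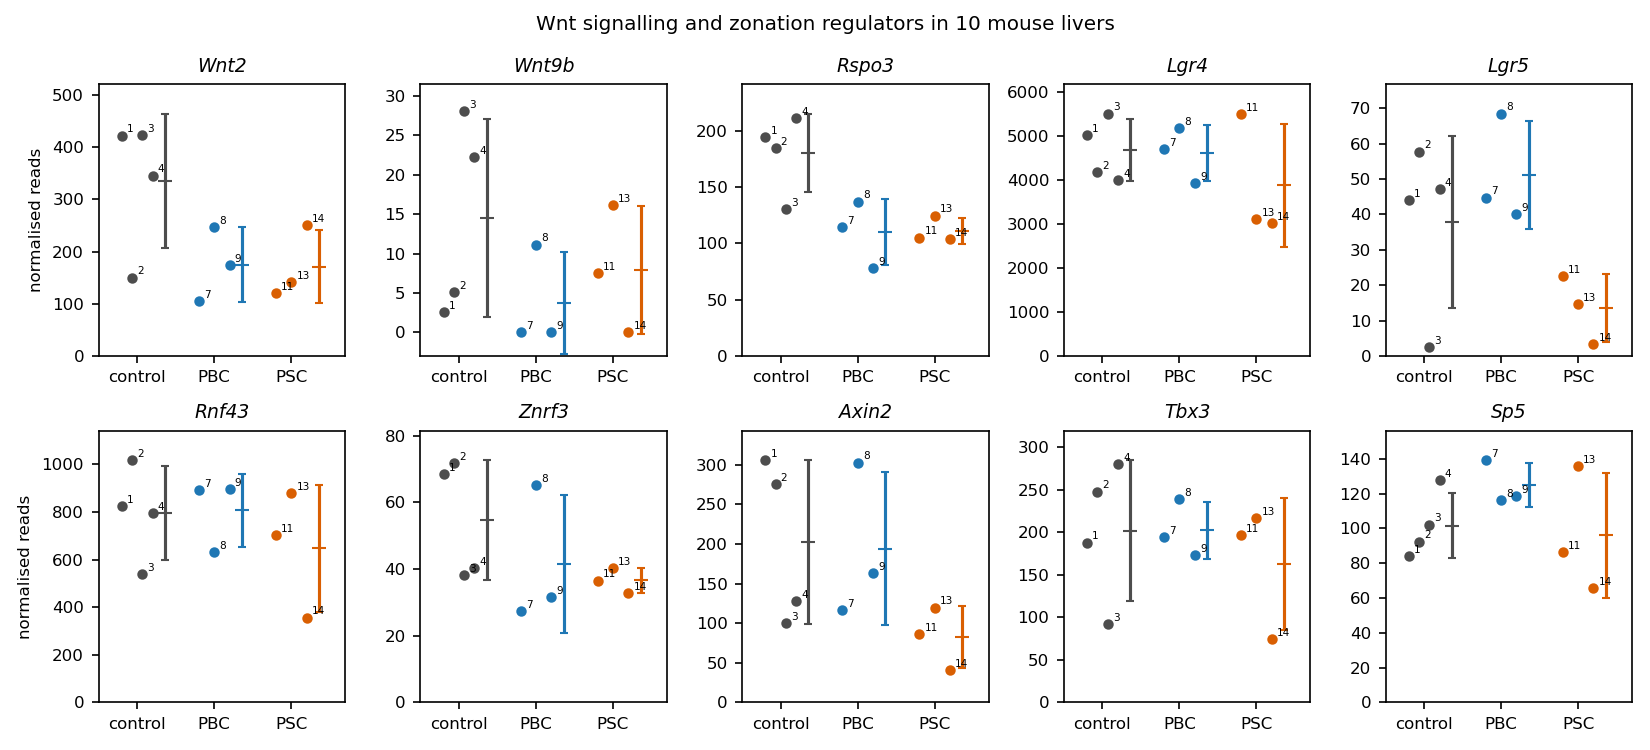
Normalised reads (vertical axis, from the deposited table) of the 10 genes in each liver, with control in grey, PBC in blue and PSC in orange. Points carry the liver's number, horizontal marks are group means and bars are ± 1 SD. Rspo3 is the only panel in which PSC and control do not overlap, and Lgr5 the only one in which PSC and PBC do not.

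Among the ligands, Wnt2 is made by liver endothelium and acts on nearby hepatocytes. Wnt2 (GSMG0032756, chromosome 6, 17988940 to 18030445, minus strand) stood at 422, 150, 424 and 346 normalised reads in controls 1 to 4, 104, 247 and 174 in PBC 7 to 9, and 120, 142 and 251 in PSC 11, 13 and 14. Controls 1, 3 and 4 were above all 6 cholangitis livers, while control 2 lay within their range. The mean was 336 ± 129 (SD, n = 4) in control, 175 ± 71.3 (n = 3) in PBC and 171 ± 70.3 (n = 3) in PSC. The Wnt2 difference was -0.91 in PBC (SE 0.41, interval -1.80 to -0.02, limma adjusted p = 0.177) and -0.93 in PSC (SE 0.41, interval -1.82 to -0.04, limma adjusted p = 0.147). Without control 2 both passed limma's test, at -1.26 in PBC (adjusted p = 0.0457) and -1.28 in PSC (adjusted p = 0.0404), where 10.1% and 11.4% of all models passed. Between the models the Wnt2 difference was -0.02, with an interval of -0.97 to 0.93.

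Wnt9b, the other ligand, is expressed by central vein endothelium. Its gene model (GSMG0007480, chromosome 11, 103727363 to 103749822, minus strand) had 2, 4, 11 and 16 recovered reads in controls 1 to 4, 0, 7 and 0 in PBC 7 to 9, and 8, 10 and 0 in PSC 11, 13 and 14. As normalised reads these were 2.59, 5.13, 28.1 and 22.2, then 0, 11.2 and 0, then 7.50, 16.2 and 0. Reads were found in every control and in 3 of the 6 cholangitis livers, and the groups overlapped. A count of 0 allows up to 3 independent reads, which is 7.46, 6.35 and 4.93 normalised reads in PBC 7, PBC 9 and PSC 14. It allows more if mates were counted separately. The difference was -2.26 in PBC (SE 1.25, interval -4.95 to 0.42, limma adjusted p = 0.269) and -1.07 in PSC (SE 1.25, interval -3.76 to 1.62, limma adjusted p = 0.607).

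Rspo3 encodes the R-spondin made by central vein endothelium and by stellate cells. Its levels (GSMG0003935, chromosome 10, 29452418 to 29535868, minus strand) were 194, 185, 130 and 211 normalised reads in controls 1 to 4, 114, 137 and 78.3 in PBC 7 to 9, and 105, 125 and 104 in PSC 11, 13 and 14. All 3 PSC livers lay below the lowest control, 1 of the 10 genes against 31.5% of all models without overlap between these groups and 15.6% lower without overlap. PBC and control overlapped only through PBC 8, at 137, and control 3, at 130, so that 0 of the 10 genes were without overlap there, against 19.6% of all models (6.89% lower). Rspo3 differed by -0.72 in PBC (SE 0.29, interval -1.34 to -0.11, limma adjusted p = 0.124) and by -0.68 in PSC (SE 0.29, interval -1.29 to -0.06, limma adjusted p = 0.131). The levels of both models were close, with a difference of 0.05 and an interval of -0.61 to 0.71. With quality weights limma called Rspo3 lower in both models (adjusted p = 0.0230 in PBC and 0.0101 in PSC), as it did Wnt2 (0.0240 and 0.00964). That fit gave control 1 the largest weight and PBC 8 the smallest.

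Endothelial marker genes were measured beside these 3 secreted factors. The summed level of 6 pan-endothelial markers ran from 4126 to 8133 in control, 5342 to 9969 in PBC and 4330 to 5333 in PSC livers. Of these, 2 of 6 (Kdr and Tek) fell in PSC and 0 changed in PBC by limma, edgeR or DESeq2 or at an unadjusted p under 0.05. Pecam1, an endothelial adhesion molecule, lay at 634 to 1165 in control, 691 to 1541 in PBC and 565 to 753 in PSC, and Cdh5 at 299 to 879, 393 to 1533 and 291 to 377. Sinusoidal markers summed to 12984 to 19225 in control, 10268 to 17798 in PBC and 11236 to 15221 in PSC, with 1 of 8 (Stab1) higher in each model. In PSC 6 of the 8 had a fitted difference below 0, with a median of -0.52 over the list. Without overlap with control were 3 of the 8, against 31.5% of all models. Besides Stab1 these were Bmp2 (1154 to 1569 against 1688 to 2585 in control) and Gata4 (243 to 333 against 342 to 637). Central vein markers summed to 593 to 841, 713 to 948 and 893 to 1024, with 1 of 5 (Vwf) higher in PBC and 2 of 5 (Vwf and Selp) in PSC. The 2 central vein markers with a PSC difference below 0 overlapped control. They were Kit (21.6 to 47.7 against 43.4 to 165 in control) and Cdh13 (30.0 to 51.8 against 38.3 to 155). PBC 8 had the highest Pecam1 and Cdh5 as well as the highest Wnt2, Wnt9b and Rspo3 of its group. No defining marker of these lists was at 0 in a liver, and their part in the ligand values was not tested.

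Lgr4, an R-spondin receptor of hepatocytes and many other cells, was the most abundant of the 10 genes. Its levels (GSMG0021536, chromosome 2, 109917647 to 110014261, plus strand) were 5029, 4176, 5508 and 4000 normalised reads in controls 1 to 4, 4702, 5186 and 3929 in PBC 7 to 9, and 5493, 3114 and 3019 in PSC 11, 13 and 14. PSC 13 and 14 were below every control and PSC 11 was next to the highest control. Lgr4 differed from control by -0.02 in PBC (SE 0.23, interval -0.51 to 0.47) and by -0.32 in PSC (SE 0.23, interval -0.81 to 0.18), with limma adjusted p = 0.970 and 0.380. As a fold, the interval runs from 0.702 to 1.39 times control in PBC and from 0.571 to 1.13 times control in PSC.

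Lgr5, the R-spondin receptor of pericentral hepatocytes and a Wnt target itself, was scarce. Levels of Lgr5 (GSMG0004616, chromosome 10, 115450314 to 115587780, minus strand) were 44.0, 57.8, 2.55 and 47.2 normalised reads in controls 1 to 4, 44.8, 68.5 and 40.2 in PBC 7 to 9, and 22.5, 14.6 and 3.29 in PSC 11, 13 and 14. Control 3 rested on 1 recovered read and PSC 14 on 2, while the other 8 livers had 9 or more. All 3 PSC livers lay below all 3 PBC livers, which held for 1 of the 10 genes against 27.2% of all models (14.6% lower). The PSC to PBC difference was -2.13 (SE 0.95, interval -4.18 to -0.08, limma adjusted p = 0.252). Against control the difference was 0.97 in PBC (SE 0.89, limma adjusted p = 0.525) and -1.16 in PSC (SE 0.89, limma adjusted p = 0.412). Without control 3 the PBC difference was 0.01, and the PSC difference was -2.12 and passed limma's test (adjusted p = 0.0331), where 16.0% of all models did. Leaving out control 3 gave 2 of the 10 genes called in PSC, Lgr5 and Axin2, and 0 in PBC, where 7.75% of all models were called.

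Rnf43 and Znrf3 encode the membrane ligases that take Frizzled receptors off the cell surface. The Rnf43 row merges this gene with 1110028F11Rik, annotated inside it on the same strand, so its reads are not those of Rnf43 alone (GSMG0005725, chromosome 11, 87662721 to 87735538, plus strand). It had 825, 1018, 539 and 796 normalised reads in controls 1 to 4, 893, 631 and 897 in PBC 7 to 9, and 704, 880 and 357 in PSC 11, 13 and 14. PSC 14 was below every other liver, and the groups overlapped. The difference was 0.04 in PBC (SE 0.31, interval -0.62 to 0.70, limma adjusted p = 0.951; -0.09 with equal totals) and -0.36 in PSC (SE 0.31, interval -1.02 to 0.31, limma adjusted p = 0.470). Without PSC 14 the PSC value was 0.02.

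Znrf3 (GSMG0006290, chromosome 11, 5276329 to 5444847, minus strand) had 68.7, 71.9, 38.3 and 40.3 normalised reads in controls 1 to 4, 27.4, 65.3 and 31.7 in PBC 7 to 9, and 36.6, 40.4 and 32.9 in PSC 11, 13 and 14. Controls 1 and 2 were high and controls 3 and 4 low, and the low ones lay in the range of the PSC livers. Znrf3 differed by -0.44 in PBC (SE 0.41, interval -1.33 to 0.45, limma adjusted p = 0.536) and by -0.51 in PSC (SE 0.41, interval -1.41 to 0.38, limma adjusted p = 0.437). Between the models the value was -0.07, and 0.02 with equal totals.

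Axin2, a scaffold of the β-catenin destruction complex that is itself induced by Wnt signals, had its lowest levels in PSC livers. It (GSMG0006054, chromosome 11, 108920345 to 108950779, plus strand) stood at 306, 276, 99.6 and 128 normalised reads in controls 1 to 4, 117, 303 and 163 in PBC 7 to 9, and 86.3, 120 and 41.1 in PSC 11, 13 and 14. PSC 11 and 14 were below every control and every PBC liver, while PSC 13 lay above control 3 and PBC 7. Means were 202 ± 104 (SD, n = 4), 194 ± 96.8 (n = 3) and 82.4 ± 39.5 (n = 3). The Axin2 difference between PSC and control was -1.26 (SE 0.48, interval -2.29 to -0.22; limma adjusted p = 0.0958). edgeR gave an adjusted p of 0.0926 and DESeq2 gave 0.0340, which passes. Without control 3 the value was -1.54 and passed limma's test (adjusted p = 0.0480). PSC against PBC gave -1.24 (SE 0.51, interval -2.35 to -0.14, limma adjusted p = 0.221), and PBC against control gave -0.01 (SE 0.48, interval -1.05 to 1.02, limma adjusted p = 0.990).

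Tbx3, a transcription factor of pericentral hepatocytes and a β-catenin target, showed no separation of groups. Tbx3 (GSMG0029724, chromosome 5, 119670862 to 119684724, plus strand) had 188, 248, 92.0 and 280 normalised reads in controls 1 to 4, 194, 239 and 174 in PBC 7 to 9, and 197, 217 and 74.0 in PSC 11, 13 and 14. Control 3 and PSC 14 were low, and the other 8 livers lay between 174 and 280. The difference was 0.11 in PBC (SE 0.43, interval -0.81 to 1.02, limma adjusted p = 0.907; -0.02 with equal totals) and -0.34 in PSC (SE 0.43, interval -1.26 to 0.58, limma adjusted p = 0.634). Leaving out PSC 14 gave 0.15.

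Sp5, a zinc finger factor induced directly by Wnt signals, had the window with 2 motif matches above. Sp5 (GSMG0021190, chromosome 2, 70474923 to 70477726, plus strand) had 84.2, 92.4, 102 and 128 normalised reads in controls 1 to 4, 139, 116 and 118 in PBC 7 to 9, and 86.3, 136 and 65.7 in PSC 11, 13 and 14. Levels spanned little more than 2-fold over all 10 livers, and the groups overlapped. The difference was 0.31 in PBC (SE 0.31, interval -0.36 to 0.97, limma adjusted p = 0.566) and -0.13 in PSC (SE 0.31, interval -0.79 to 0.53, limma adjusted p = 0.815). For PSC against PBC it was -0.43 (SE 0.33, interval -1.14 to 0.27, limma adjusted p = 0.490).

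**Figure D2:**
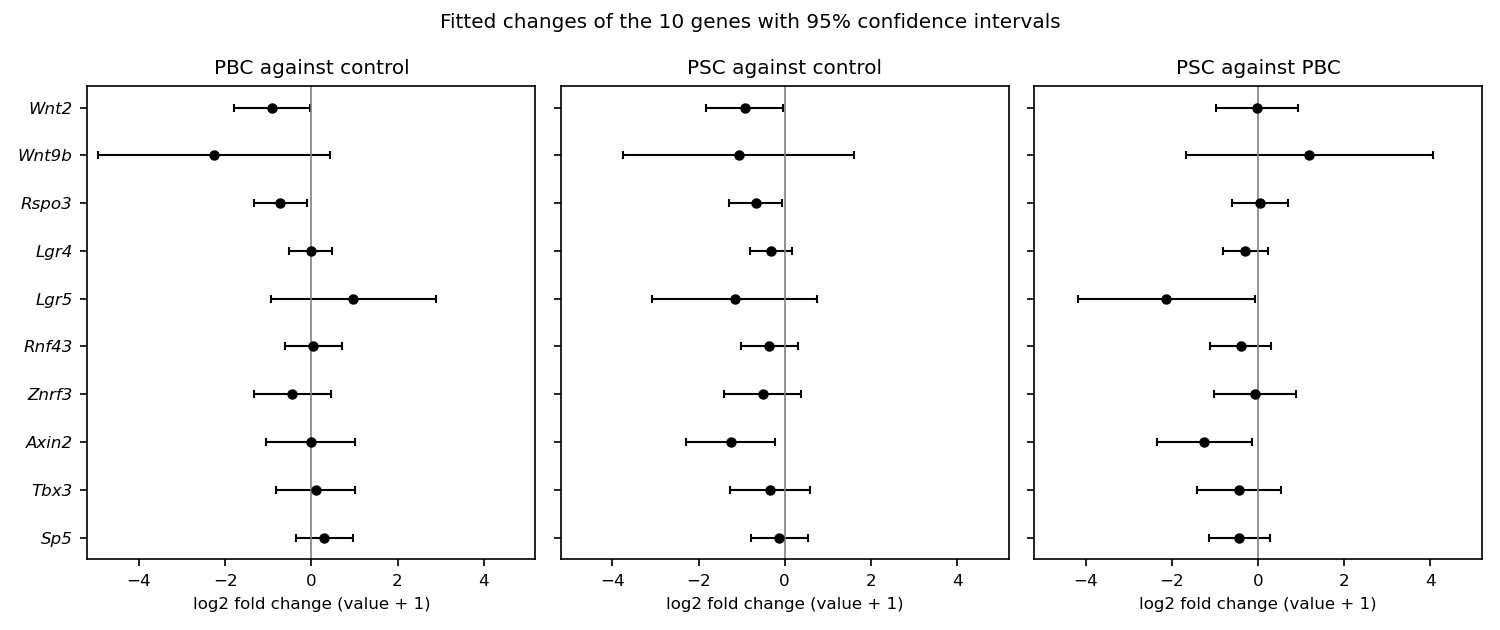
Log2 fold change of the normalised reads plus 1 (horizontal axis) for the 10 genes (rows) in the 3 comparisons (panels), with points for limma's estimates and bars for 95% confidence intervals. Every PSC against control estimate is below 0, the intervals of Axin2, Wnt2 and Rspo3 do not reach 0 there, and no gene passes after adjustment over all 18390 models.

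Levels were compared between the 10 genes only per kb of exon, using the merged exons of GENCODE vM21. In the 4 controls Lgr4 came first at 795 ± 121 normalised reads per kb, above Wnt2 at 149 ± 57.1 without overlap. Rnf43 followed at 121 ± 30.0, overlapping Wnt2, and lay above Rspo3 at 58.3 ± 11.3 without overlap. Rspo3 overlapped Sp5 at 48.4 ± 8.99, Sp5 overlapped Axin2 at 36.7 ± 18.8, and Axin2 overlapped Tbx3 at 30.5 ± 12.5. All controls of Tbx3 were above those of Znrf3, at 6.94 ± 2.27 per kb. Lgr5 at 3.69 ± 2.37 and Wnt9b at 3.21 ± 2.78 were lowest and overlapped their neighbours in this order. The ligand Wnt2 was among the higher levels per kb and the ligand Wnt9b at the bottom.

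**Figure D3:**
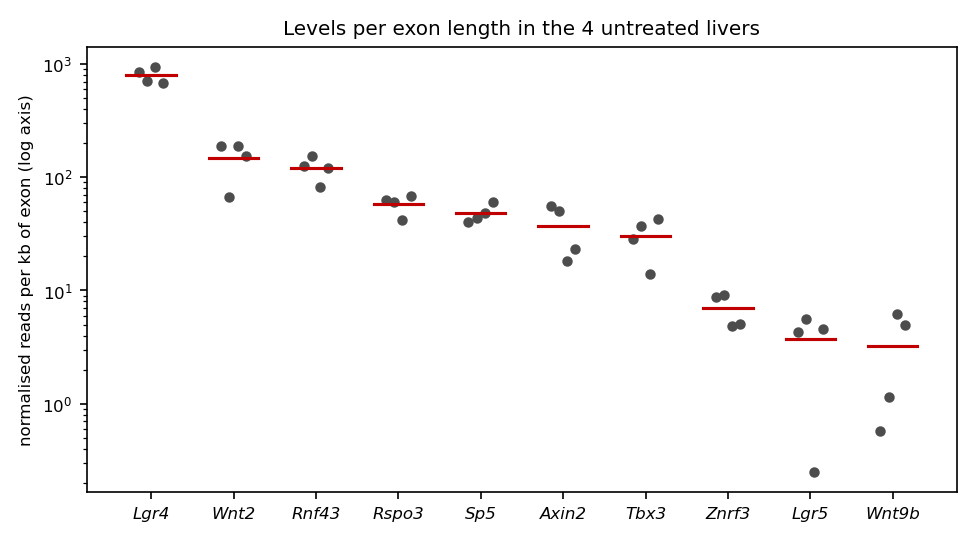
Normalised reads per kb of exon (log axis) of the 10 genes in the 4 untreated livers, in order of their mean (red line), with a point for each liver. Lgr4 stands highest and Znrf3, Lgr5 and Wnt9b lowest, with the wide spread of Lgr5 and Wnt9b resting on few reads.

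Annotated genes overlap some of these models. Axin2 overlaps the antisense gene Gm11670, Tbx3 overlaps Tbx3os1, Lgr5 overlaps A930009A15Rik on the opposite strand, and Rspo3 overlaps Gm48159 on the opposite strand and Gm20276 on its own. The libraries mark strand, but no source used here gives whether the counting used it, and reads of these pairs may be mixed. No annotated gene overlaps Znrf3, Wnt2, Wnt9b, Lgr4 or Sp5.

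The rest of the pathway was read from 8 lists of Wnt components and targets and 2 lists of zoned hepatocyte genes. Of 96 such genes beside the 10, 94 were matched by symbol and 74 were tested. In PBC against control 6 of the 74 rose and 0 fell, against 7.60% and 2.34% of all models. In PSC 8 rose and 5 fell, against 8.25% and 6.48%. In PSC against PBC 4 were higher and 3 lower, against 1.13% and 1.11%. The lists and genes were chosen with results of these data known, so the counts are descriptions. Of the 8 that rose in PSC, 3 (Wnt7a, Wnt10a and Dkk2) passed the filter only through the PSC livers in which they are high, as did 2 of the 4 higher than in PBC. Sfrp2, which rose in both models, passed it only through PBC and PSC livers, with no control above 5.18. The counts of higher genes in all 3 comparisons are therefore not read against the shares of all models. With the filter at 50 the higher genes were 4 in PSC against control and 2 in PSC against PBC.

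With 1 library left out, the PBC count of higher genes was 3 without PBC 7 or PBC 9, and that of lower genes 4 without PBC 8. The PSC count of higher genes was 4 without PSC 11 or PSC 13 and 3 without PSC 14. That of lower genes was 1 without control 2 or PSC 14, 2 without PSC 11, 3 without control 1, 8 without control 3 and 9 without PBC 8. In PSC, 11.4% of all models were called in either direction without control 2 and 16.0% without control 3. Shares were not taken for the other libraries left out, so these counts are descriptions. Against PBC, the count of higher genes was 2 without PBC 9 or PSC 13, 1 without PSC 11 and 0 without PSC 14. That of lower genes was 1 without control 2, PBC 7, PBC 9 or PSC 11, 0 without PSC 13 or PSC 14 and 5 without PBC 8. Quality weights gave 10 higher and 4 lower in PBC, 14 and 21 in PSC, and 5 and 6 in PSC against PBC. DESeq2 gave 6 higher and 2 lower in PBC, 8 and 12 in PSC, and 5 and 7 in PSC against PBC. In either direction, quality weights called 23.0%, 39.7% and 7.39% of all models in these comparisons, and DESeq2 14.3%, 20.7% and 6.60%. Their split into higher and lower over all models was not taken, so no direction is read from these counts. With equal totals the lower genes were 3 in PSC and 1 against PBC, with no filter also 3 and 1, and with only the compared groups 8 were lower in PSC and 3 higher in PBC.

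Among 9 tested ligands, 3 rose in PSC against control by limma and 0 fell, and none of the 3 is among the 10. Fitted differences were below 0 for 5 of the 9 in PSC and 8 in PBC. DESeq2 called 1 lower in PSC (20.7% of all models in either direction). Quality weights called 2 lower in PSC and 3 in PBC (39.7% and 23.0%). Wnt2b, on few reads, lay at 10.2 to 40.2 in control, 0 to 6.37 in PBC and 0 to 6.57 in PSC. Only control livers took Wnt2b past the filter. Wnt7b, a ligand of epithelia, lay at 10.2 to 13.9 normalised reads in control, 4.23 to 19.9 in PBC and 101 to 139 in PSC livers. It rose by 3.26 in PSC (SE 0.51, limma adjusted p = 0.00140) and was 3.36 above PBC (SE 0.55, limma adjusted p = 0.00654; 0.0519 without PSC 14). Wnt7a had 2 reads in the controls together, 0 in PBC and 46.0 to 55.0 normalised reads in PSC. Its PSC to control ratio was 65.0 (95% counting interval 17.6 to 544, limma adjusted p = 0.00261). With PBC set at a floor of 3 reads over the group, PSC was 24.5-fold higher than PBC (limma adjusted p = 0.00785). The lower counting limit was 19.6, and both bounds are too high if mates were counted separately. Wnt10a had 2 reads in control and 2 in PBC and lay at 36.6 to 49.3 normalised reads in PSC, a ratio to control of 53.4 (counting interval 14.4 to 448, limma adjusted p = 0.00480). Its ratio to PBC was 30.1 (counting interval 8.11 to 253, limma adjusted p = 0.0288), a call that ended without PBC 7 or 9 and with a pseudocount of 0.5 (adjusted p from 0.0607 to 0.0704). For Wnt7b, Wnt7a and Wnt10a the PSC livers lay above all other livers, whereas none of the PSC livers reached the level of Wnt2 in controls 1, 3 and 4. Only PSC livers took Wnt7a and Wnt10a past the filter, so that neither was tested when a PSC liver was left out. The PSC livers are those with the high cholangiocyte and myofibroblast marker sums given above, whose part in these values was not tested.

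Secreted inhibitors bind Wnt ligands or Lrp co-receptors or act on the ligands. Of the 8 tested, by limma 2 rose in PBC and 4 in PSC, and 0 fell. Fitted differences were below 0 for 4 of the 8 in PBC and 3 in PSC. In PSC DESeq2 and quality weights each called 2 lower, where 20.7% and 39.7% of all models were called in either direction. Kremen1, counted in this list, lay at 240 to 307 in control, 87.0 to 290 in PBC and 115 to 156 in PSC. Notum lay at 1382 to 2456, 1181 to 1615 and 930 to 1334. Sfrp1 lay at 40.9 to 78.3 in control, 140 to 547 in PBC and 136 to 191 in PSC, and rose by 2.33 in PBC (SE 0.42, limma adjusted p = 0.00380) and 1.60 in PSC (SE 0.42, limma adjusted p = 0.0223). Sfrp2 rose by 3.93 in PBC (SE 0.70, limma adjusted p = 0.00362) and 3.26 in PSC (SE 0.70, limma adjusted p = 0.00853), from 8 reads in the 4 controls together. Only PBC and PSC livers took Sfrp2 past the filter. Frzb rose by 2.64 in PSC (SE 0.31, limma adjusted p = 0.000173), from 63.9 to 141 in control to 493 to 750.4 in PSC, and was 1.72 above PBC (SE 0.33, limma adjusted p = 0.0169). In PBC it lay at 148 to 209, above every control, with a difference of 0.92 that did not pass (SE 0.31, limma adjusted p = 0.0767). Dkk2, which blocks Lrp co-receptors, had 4 reads in control and rose by 3.95 in PSC (SE 0.96, limma adjusted p = 0.0162), and it too passed the filter only through the PSC livers. The PSC calls of Sfrp1 (adjusted p = 0.0524 to 0.108 without control 1, PSC 11, 13 or 14) and Sfrp2 (0.0639 without PSC 14) and the Frzb call against PBC (0.0545 to 0.0824 without PBC 9, PSC 11 or 14) ended when 1 library was left out. Summed myofibroblast markers rose in the same groups, and their part in these values was not tested.

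By limma, lower in PSC were 2 of 11 tested receptors, 2 of 8 TCF/LEF factors and co-activators and 2 of 15 targets. Tcf7 is in both of the last lists, and 0 rose in these lists. Of all models 6.48% were lower. With 1 library left out, the lower receptors ran from 0 to 4, TCF/LEF genes from 1 to 2 and targets from 1 to 5. Lower were 4, 2 and 2 with edgeR and 4, 2 and 4 with DESeq2. Quality weights gave 5, 4 and 6 lower, and 1 receptor and 1 target higher. In either direction these methods called 14.2%, 20.7% and 39.7% of all models. Tcf7, a TCF factor abundant in T cells, fell by 1.47 (SE 0.30, limma adjusted p = 0.00715), from 142 to 220 in control to 52.6 to 74.4 in PSC. None of 5 T cell markers passed in PSC by limma, edgeR or DESeq2, and 0 had an unadjusted p under 0.05. The part of T cells in the Tcf7 values was not tested. The co-receptor Lrp6 fell by 1.14 (SE 0.29, limma adjusted p = 0.0212), the receptor Ror1 by 1.89 (SE 0.48, limma adjusted p = 0.0207), the co-activator Pygo1 by 1.48 (SE 0.42, limma adjusted p = 0.0333) and the cyclin gene Ccnd1 by 1.20 (SE 0.31, limma adjusted p = 0.0227). Each of these 4 calls ended without PSC 14 and without control 2, with adjusted p between 0.0534 and 0.134. The Ror1 call also ended without control 1 (0.0622) or PSC 11 (0.0818), and that of Lrp6 without PSC 11 (0.0643) or PSC 13 (0.0565). The Pygo1 call also ended without control 1 (0.0962), PSC 11 (0.0704) or PSC 13 (0.144), and the Ccnd1 call without control 4 (0.0538). Those of Ror1 and Pygo1 also ended with no filter (0.0540 and 0.0759), and those of Lrp6 and Ccnd1 with equal totals (0.0539 and 0.0543). Of the 10 cytoplasmic transducers, including β-catenin, 0 passed in any comparison by limma. At an unadjusted p under 0.05 there were 2 of them in PBC, 1 in PSC and 1 between the models. The shares of all models were 26.5%, 30.1% and 18.5%. edgeR called 0 in each and DESeq2 called 1 in PBC, where it called 14.3% of all models.

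**Figure D4:**
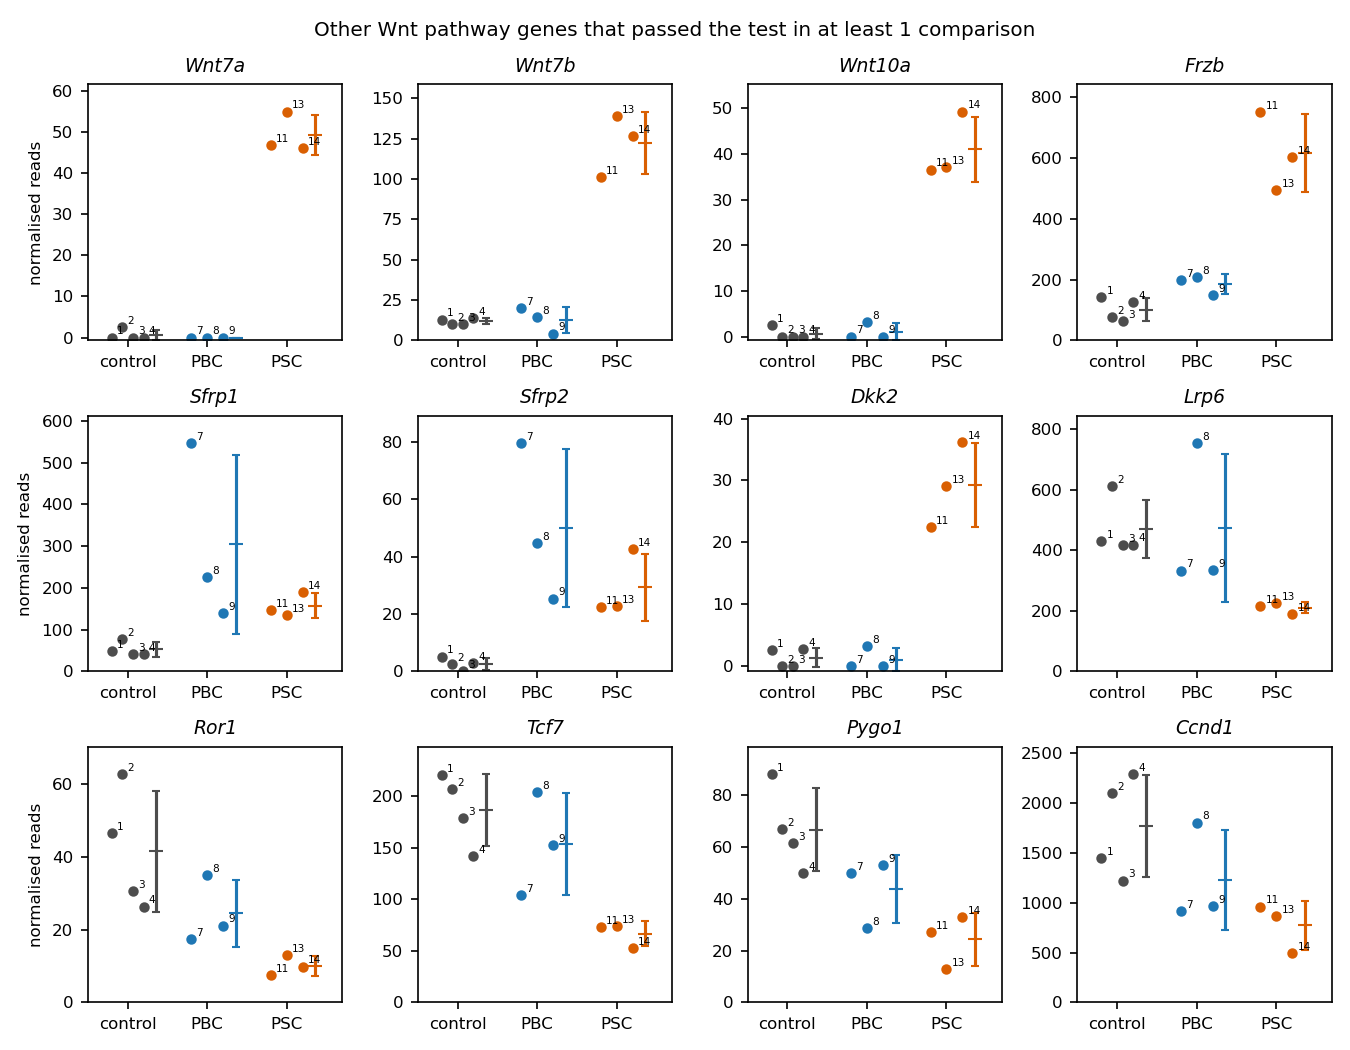
Normalised reads (vertical axis) of the 12 other Wnt pathway genes that passed limma's test in at least 1 comparison, by liver, with control in grey, PBC in blue and PSC in orange. Marks and bars are group means ± 1 SD, and in the panels of Wnt7a, Wnt7b, Wnt10a, Frzb and Dkk2 all 3 PSC livers lie above every other liver.

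Zoned hepatocyte genes are the known readout of these regulators. Of 10 pericentral genes, 1 rose in PBC (Rhbg, an ammonium transporter gene whose row also holds Tsacc, by 1.33, SE 0.26, limma adjusted p = 0.00595), 0 changed in PSC and 2 were lower in PSC than in PBC. Of all models 7.60% rose in PBC, 14.7% changed in PSC and 1.11% were lower in PSC than in PBC. The count lower than in PBC was 0 without PSC 13 or PSC 14. In PSC against control 4 of the 10 had an unadjusted p under 0.05, against 30.1% of all models. There edgeR called 0 and DESeq2 called 2, against 14.2% and 20.7% of all models. Those lower than in PBC were Cyp1a2, a cytochrome P450, at -1.64 (SE 0.29, limma adjusted p = 0.0106), and Slc1a2, a glutamate transporter, at -1.25 (SE 0.30, limma adjusted p = 0.0475). Cyp1a2 lay at 13255 to 30137 in control, 25087 to 41941 in PBC and 9260 to 11695 in PSC livers, so that PSC was below all other livers. Glul, the glutamine synthetase of the innermost pericentral layer, was no called gene, with 13230 to 27781 in control, 17963 to 24686 in PBC and 12157 to 15979 in PSC (difference -0.58 in PSC, SE 0.24, limma adjusted p = 0.131).

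Of 11 periportal genes, 3 rose in PBC and 1 in PSC, against 7.60% and 8.25% of all models. The PBC count was 0 without PBC 7 or PBC 9 and with only the compared groups. It was 1 with equal totals and without control 1 or control 3, and 5 with quality weights and without PBC 8. Cdh1, the epithelial cadherin that bile ducts also express, rose by 1.16 in PBC (SE 0.31, limma adjusted p = 0.0346) and by 1.52 in PSC (SE 0.31, limma adjusted p = 0.00719). The urea cycle gene Cps1 rose by 0.96 in PBC (SE 0.23, limma adjusted p = 0.0198) and the histidine lyase gene Hal by 0.78 (SE 0.20, limma adjusted p = 0.0282). Hal was lower in PSC than in PBC by 0.932 (SE 0.22, limma adjusted p = 0.0407). Leaving out PBC 7 or PBC 9, among other libraries, ended the PBC calls of Cdh1, Cps1 and Hal (adjusted p from 0.0762 to 0.142), and leaving out PSC 13 or PSC 14 ended the calls against PBC of Cyp1a2, Slc1a2 and Hal (0.0624 to 0.201). No filter and equal totals also ended those of Slc1a2 (0.0501 and 0.0779) and Hal (0.0658 and 0.0609), and a pseudocount of 0.5 that of Slc1a2 (0.0528). In PBC, fits with only the compared groups ended all 3 calls (0.0651 to 0.0819). Equal totals ended those of Cdh1 (0.0613) and Hal (0.0628), no filter that of Hal (0.0521) and edgeR that of Cdh1 (0.0666). The PSC call of Cdh1 was kept in every alternative (adjusted p at most 0.0440), beside cholangiocyte markers that were higher in the same livers.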

How the data were processed

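Poly(A) RNA of 10 livers was sequenced as stranded paired-end libraries, per the labels' protocols. The submitters' processing notes name STAR 2.4.0, the build mm10, DESeq2, FastQC, Picard and SAMtools. How reads were counted, with or without strand, and what became of reads shared between genes is not given in the sources used here. In each row the deposited signal is a read number that the authors normalised with DESeq2. Of the values above 0, 99.9986% were whole multiples of 1 step per library (tolerance 0.1), which gave recovered reads. On average 2263 models had 2 reads and 572.7 had 1, so mates were probably counted separately and counting intervals, which cover counting error only, are too narrow. No pair of libraries was a duplicate (correlations within groups 0.9427 to 0.976).

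The main test was limma 3.58.1 (R 4.3.3) with an intensity trend on log2(value + 1), two-sided, with all 10 libraries in 1 fit. Tested were rows that reached 10 in 3 or more libraries, and Benjamini-Hochberg adjusted p under 0.05 was called. A fold on this scale understates changes of low genes. edgeR 4.0.16 (quasi-likelihood) and DESeq2 1.42.0 on recovered reads, other pseudocounts (0.5 and 5), filters (none, or 50) and scalings, quality weights, only the compared groups, and each library left out were alternatives. Scripts were tested on simulated data. Named were the 10 genes and, from each pathway list, up to 4 with the smallest adjusted p under 0.05. Glul, Kdr, Tek, Vwf, Selp, Ttr, Spp1, Sox9, Bmp2, Gata4, Kit, Cdh13, Wnt2b, Kremen1 and Notum were named after their values were seen. The 10 genes and the lists were chosen with earlier results of these data known. Fzd2, Fzd7 and the hepatocyte marker Tf were not matched by symbol.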

Additional observations from a re-analysis of the deposited data

Results flagged for a closer look

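The 7 values here are differences between the effects of the 2 models that passed limma's test of PSC against PBC, which is also the test of the difference between the changes from the shared controls. On the log2 scale, Wnt7b was 3.36 higher in PSC than in PBC, Wnt7a 5.65 higher and Wnt10a 4.69 higher, and the Wnt inhibitor Frzb was 1.72 higher. Wnt7a and Wnt10a passed the filter only through the PSC livers in which they are high, so their values are descriptions. The Wnt10a call ended without PBC 7 (limma adjusted p = 0.0704) or PBC 9 (0.0607) and with a pseudocount of 0.5 (0.0676). As given above, the calls of Wnt7b, Frzb, Cyp1a2, Slc1a2 and Hal also ended when 1 library was left out. The Wnt7a and Wnt10a values depend on the pseudocount, since PBC livers had 0 and 2 reads in all. With a pseudocount of 5 they were 3.44 and 2.95. The zoned genes Cyp1a2, Slc1a2 and Hal were lower in PSC, with differences of -1.64, -1.25 and -0.932. None of the regulators Axin2, Lgr5, Tbx3, Rnf43, Znrf3, Wnt2, Wnt9b, Rspo3, Lgr4 and Sp5 differed between the models by limma's adjusted p, while 2 had an unadjusted p under 0.05, and edgeR and DESeq2 called 0. By Dixon's 95% criterion, the gap to the nearest liver over the range of the group, no control was an outlier in any of the 10 genes, which with 4 livers needs a gap near the whole range. Control 3, with 2.55 normalised reads of Lgr5 against 44.0 to 57.8 in the other controls, changes the Lgr5 and Axin2 results all the same. Groups of 3 were not tested for outliers.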

How the results depend on the processing

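Of 594 values of the 10 genes under alternatives, 545 kept their direction and side of the threshold, 12 newly passed it and 37 changed sign. The count called was 0 to 1 for PBC against control when 1 library was left out (1 without control 2) and 2 with quality weights. For PSC against control it was 0 to 2 (1 without control 2, 2 without control 3), 5 with quality weights and 1 with DESeq2, and for PSC against PBC it was 0 throughout. The causes were not tested.

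Sign changes in PBC against control were Tbx3 at -0.02207 with equal totals, -0.0152 with quality weights, -0.04553 with edgeR and -0.06287 with DESeq2, and Rnf43 at -0.08758 with equal totals, -0.03584 with edgeR and -0.03748 with DESeq2. In PSC against control they were Wnt9b at 0.1741 and Sp5 at 0.1337 with quality weights. In PSC against PBC they were Znrf3 at 0.01978 with equal totals and 0.2004 with quality weights, and Wnt2 at 0.07791 and 0.2281. With 1 library left out, PBC values ran from -0.3898 to 0.2929 for Axin2, -0.2317 to 0.301 for Tbx3, -0.1341 to 0.2079 for Rnf43 and -0.1095 to 0.09064 for Lgr4. PSC values ran from -0.6776 to 0.1491 for Tbx3, -0.6271 to 0.02319 for Rnf43, -1.921 to 0.1298 for Wnt9b and -0.4098 to 0.1082 for Sp5, each above 0 only without PSC 14. PSC against PBC ran from -0.7252 to 0.04407 for Tbx3, -0.3133 to 0.2998 for Znrf3, -0.3463 to 0.2705 for Wnt2 and -0.1768 to 0.2231 for Rspo3.

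With a filter of 50 normalised reads, Lgr5 and Wnt9b were not tested. Lgr5 had 1 read in control 3, and Wnt9b had 0 in 3 livers and at most 16 elsewhere. No paired analysis was possible because the groups share no replicate numbers.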
